A study of Mus musculus with 16 samples.

Results

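NADPH oxidase genes were followed through RNA sequencing of the mouse left ventricle as 8 subunits, Cybb, Cyba, Ncf1, Ncf4, Rac2, Nox4, Nox1 and Noxo1, chosen by gene symbol out of 55492 genes in the table. All 8 were found, and all 8 passed the minimum mean of 10 normalized counts that a gene needed to be tested. A normalized count is the number of reads on a gene divided by a scaling factor of the library, so that libraries of different depth can be compared. The 16 libraries, each from its own C57BL/6 male of 8 to 12 weeks, came from PKM2fl/fl mice, in which exon 10 of Pkm is flanked by loxP sites, and from PKM2-/- mice. In PKM2-/- mice this exon had been deleted in the germline with a CMV-Cre transgene that was then bred out, so that every cell type of the heart lacks it. Each genotype had 2 hearts without surgery (baseline), 3 hearts taken 3 days after sham surgery and 3 hearts taken 3 days after myocardial infarction (MI) by permanent ligation of the left anterior descending artery.

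NADPH oxidases pass electrons from NADPH across a membrane to oxygen and so make superoxide or hydrogen peroxide. In the phagocyte enzyme, Cybb encodes the catalytic subunit gp91phox (NOX2) and Cyba its membrane partner p22phox. Cytosolic proteins, among them p47phox (Ncf1) and p40phox (Ncf4), and the small GTPase Rac2 join them when the cell is activated. Neutrophils and macrophages use this oxidase to kill microbes. Nox4 encodes a catalytic subunit that also pairs with p22phox, needs no cytosolic partner and makes mainly hydrogen peroxide, and in the heart it is known from cardiomyocytes, fibroblasts and vessel walls. Nox1, best known from colon epithelium and vascular smooth muscle, works with the organizer encoded by Noxo1. PKM2 is an isoform of pyruvate kinase, and the study examined oxidative stress in hearts without it.

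The genes lie apart from each other in GRCm38.p6, the genome build that the files use under the name mm10. They are Cybb (chrX:9435252-9487766), Cyba (chr8:122424771-122432940), Ncf1 (chr5:134220053-134229628), Ncf4 (chr15:78244164-78262582), Rac2 (chr15:78559169-78572783), Nox4 (chr7:87244430-87398710), Nox1 (chrX:134086421-134137711) and Noxo1 (chr17:24696234-24700530). All are protein coding, and each value is the sum over the exons of the whole gene. The 250 bases before the RefSeq transcript start are printed for the catalytic subunits Cybb, Nox4 and Nox1, because Cybb and Nox4 rose after MI and Nox1 did not. RefSeq gives Cybb chrX:9469325-9469574 on the minus strand, Nox4 chr7:87246399-87246648 on the plus strand and Nox1 chrX:134111855-134112104 on the minus strand. All 3 windows lie inside the outer span of their gene, since other transcripts start further upstream. Capitals mark GAGGAA, a purine-rich sequence bound by ETS factors such as the phagocyte regulator PU.1 (Spi1).
Cybb: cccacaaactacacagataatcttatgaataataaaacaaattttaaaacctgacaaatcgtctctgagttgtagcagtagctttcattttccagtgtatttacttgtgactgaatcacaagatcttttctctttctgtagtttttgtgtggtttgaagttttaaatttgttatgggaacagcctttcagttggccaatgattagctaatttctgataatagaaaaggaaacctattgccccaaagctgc
Nox4: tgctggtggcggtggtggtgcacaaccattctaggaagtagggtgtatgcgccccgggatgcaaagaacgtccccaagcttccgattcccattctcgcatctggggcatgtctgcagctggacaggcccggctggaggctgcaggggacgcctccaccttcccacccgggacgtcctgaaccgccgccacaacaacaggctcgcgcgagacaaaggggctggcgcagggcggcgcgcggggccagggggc
Nox1: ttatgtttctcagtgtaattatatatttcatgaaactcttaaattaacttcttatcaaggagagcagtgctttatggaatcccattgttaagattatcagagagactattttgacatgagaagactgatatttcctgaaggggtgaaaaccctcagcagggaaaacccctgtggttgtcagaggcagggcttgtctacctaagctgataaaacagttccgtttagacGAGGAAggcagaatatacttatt

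The 3 windows differ in base composition. G and C made up 34.0% of the Cybb window, 38.0% of the Nox1 window and 67.2% of the Nox4 window, against a median of 52.4% over all promoters in the table. The Nox4 window held 20 CG dinucleotides, the Nox1 window 2 and the Cybb window 1, with a median of 6 over all promoters. GAGGAA, searched on both strands as GAGGAA or TTCCTC, was present in 23.3% of 32851 promoter windows of this length. Among the 6 members with an entry in the table, 1 held it, Nox1, and the letters were absent from the windows of Cybb, Cyba, Ncf1, Nox4 and Noxo1. Only these exact letters were searched, so their absence does not mean that a window lacks a binding site for PU.1.

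Depth ranged from 20623769 to 71855101 reads per library. Over all libraries Cybb had the most reads of the 8 genes (15541) and Noxo1 the fewest (427, from 13 to 46 per library), so that values of Noxo1 carry the largest counting error. The highest gene of a library, mt-Rnr2 or CT010467.1, took from 8.43% to 25.1% of its reads. Scaling to total reads, used below as an alternative, includes these reads and so depends on their share. Pkm, counted over all its exons, had 7779 to 12076 normalized counts in PKM2fl/fl and 10120 to 16113 in PKM2-/- hearts, and a count of the whole gene does not show the deletion of exon 10. Cardiomyocyte markers (Myh6, Tnnt2 and others, 6 genes) summed to between 156083 and 900302 normalized counts per library, which fits the labelled tissue. The labels name no batch.

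**Figure D1:**
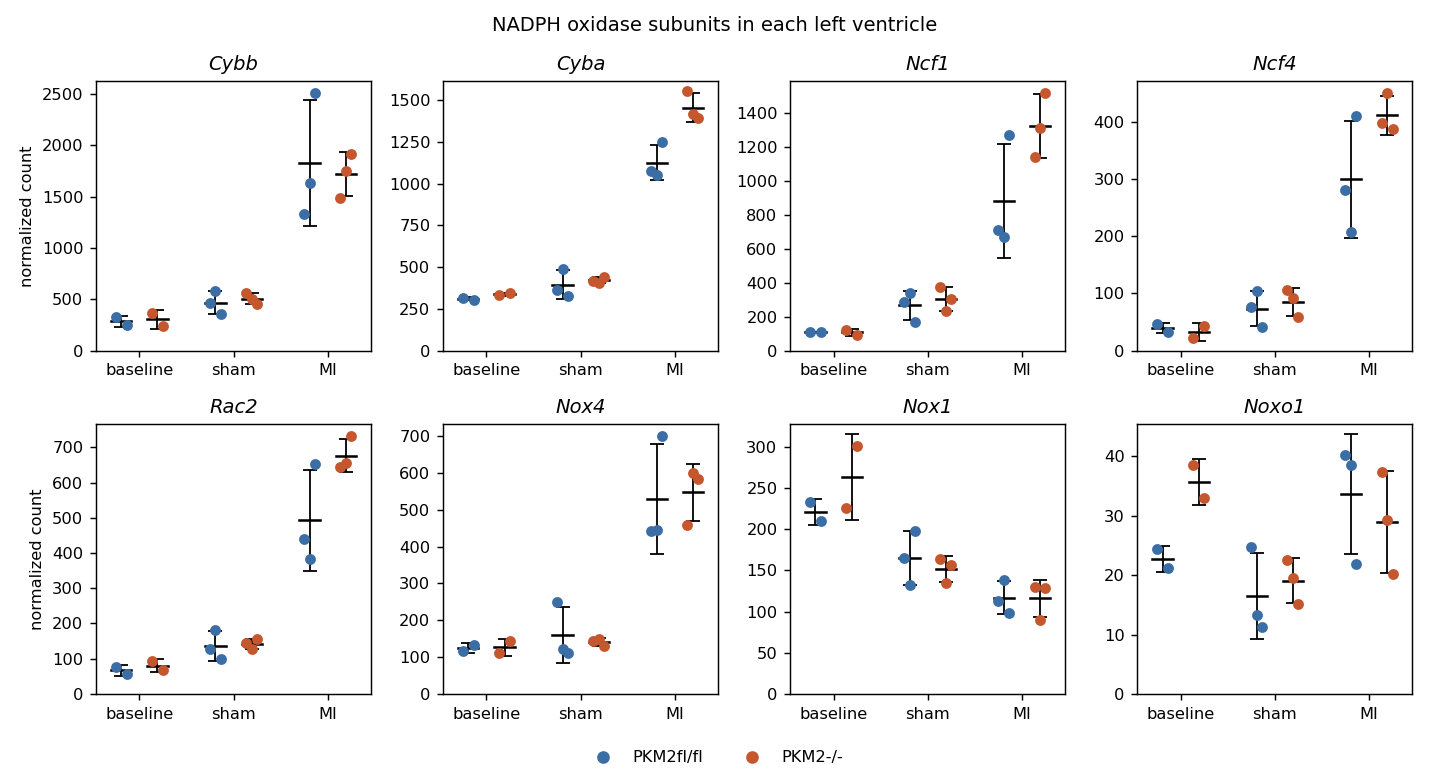
Normalized counts of the 8 NADPH oxidase genes in each of the 16 left ventricles, by treatment (x axis) and genotype (colour). Points are single hearts, the horizontal bar is the mean and the whisker the SD. Cybb, Cyba, Ncf1, Ncf4, Rac2 and Nox4 stand above sham in every MI heart of their genotype, Nox1 steps down from baseline to MI, and Noxo1 stays at 40.2 or less.

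The first question was how the transcripts of the oxidase differed 3 days after MI from sham surgery. The phagocyte oxidase rose together in both genotypes, its 5 genes by 2.89-fold to 4.13-fold in PKM2fl/fl hearts and by 3.39-fold to 4.89-fold in PKM2-/- hearts. Nox4 rose by 3.45-fold and 3.83-fold. Nox1 did not rise in either genotype. Of the 8 genes, 7 were called in PKM2fl/fl hearts, all of them higher, where a call is an adjusted p under 0.05 together with at least a 2-fold change. Over all 20576 genes tested, 23.5% were called in this comparison, 12.4% as higher and 11.1% as lower. In PKM2-/- hearts 6 of the 8 were called, all higher, against 28.8% of all genes, 14.5% called as higher and 14.3% as lower. In each genotype 6 of the 8 members stood higher in every MI heart than in every sham heart, as did 30% of all genes in PKM2fl/fl and 31.7% in PKM2-/- hearts. Of the members, 1 in PKM2-/- hearts stood lower without overlap, beside 30.6% of all genes. Among the members the median difference was 1.75 on the log2 scale in PKM2fl/fl and 1.86 in PKM2-/- hearts, while over all genes tested it was -0.0025 and 0.01. The standard error (SE) given with each difference comes from limma, fitted across all genes and 16 libraries.

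Cybb, the catalytic subunit of the phagocyte enzyme, had 468, 580.0 and 355 normalized counts in the PKM2fl/fl sham hearts and 1328, 1639 and 2512 after MI. Even the lowest MI heart stood far above the highest sham heart, and the third MI heart stood well above the other two. Its PKM2-/- hearts had 558, 507 and 454 normalized counts after sham surgery and 1492, 1752 and 1917 after MI. On the log2 scale Cybb rose by 1.94 (SE 0.23, adjusted p = 8.17e-06) in PKM2fl/fl hearts and by 1.76 (SE 0.23, adjusted p = 1.16e-05) in PKM2-/- hearts.

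Cyba, the membrane partner shared by NOX1, NOX2 and NOX4, varied least between MI hearts. It had 365, 491 and 325 normalized counts in the PKM2fl/fl sham hearts and 1077, 1050.2 and 1246 after MI. The PKM2-/- hearts had 419.6, 406 and 443 after sham surgery and 1551, 1418 and 1392 after MI. Sham and MI hearts lay far apart in both genotypes, and Cyba rose by 1.53 (SE 0.13, adjusted p = 4.10e-07) and by 1.78 (SE 0.13, adjusted p = 8.01e-08) on the log2 scale. Its coefficient of variation among 3 MI hearts, the lowest of the 8 genes in both genotypes, was 9.41% in PKM2fl/fl and 5.85% in PKM2-/-, compared with 33.6% and 12.5% for Cybb.

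Ncf1, the organizer p47phox, whose phosphorylation starts assembly of the enzyme, had 288, 342 and 171 normalized counts in the PKM2fl/fl sham hearts. After MI it had 713, 668 and 1268, with the third heart again the highest. The PKM2-/- hearts went from 375, 234 and 305 after sham surgery to 1141, 1314 and 1516 after MI. Ncf1 thus rose by 1.72 (SE 0.27, adjusted p = 8.77e-05) and, in PKM2-/- hearts, by 2.13 (SE 0.27, adjusted p = 8.55e-06) on the log2 scale.

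Ncf4, which encodes p40phox, a phosphoinositide-binding partner that holds the enzyme at phagosomes, was the least abundant of the 5 phagocyte genes by reads. Its sham hearts had 76.4, 104 and 41.2 normalized counts in PKM2fl/fl, and its MI hearts 281, 207 and 409.7. With PKM2 deleted, the sham hearts had 106, 92.7 and 58.3 and the MI hearts 397, 449.7 and 387. The groups did not overlap, and Ncf4 rose by 2.05 (SE 0.35, adjusted p = 1.82e-04) and by 2.29 (SE 0.35, adjusted p = 4.86e-05) on the log2 scale.

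Rac2, the Rac GTPase of blood cells, had 129, 183 and 98.0 normalized counts in the PKM2fl/fl sham hearts and 441, 383 and 654 after MI. Among PKM2-/- hearts it had 143, 128 and 155 after sham surgery and 643, 655 and 731 after MI. Every MI heart stood above every sham heart, and Rac2 rose by 1.85 (SE 0.23, adjusted p = 1.34e-05) and by 2.25 (SE 0.23, adjusted p = 1.60e-06) on the log2 scale. Rac1, a close relative of Rac2 that is present in most cell types, passed by p in both genotypes without reaching a 2-fold change, at 0.45 (adjusted p = 3.50e-03) and 0.53 (adjusted p = 8.19e-04) on the log2 scale. Per kilobase of transcript, Rac2 stood at 0.0530 ± 0.0146 of Rac1 in PKM2fl/fl sham hearts and at 0.138 ± 0.0144 after MI (SD, n = 3). The corresponding ratios were 0.0513 ± 0.00437 and 0.170 ± 0.0222 in PKM2-/- hearts. Since both genes are similar in sequence, their values depend on how reads matching both were counted.

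Nox4 had 249, 121 and 109.8 normalized counts in the PKM2fl/fl sham hearts and 442, 446 and 701 after MI. The first sham heart stood well above the other two and still below every MI heart. PKM2-/- hearts had 145, 150.2 and 129 after sham surgery and 459, 600.2 and 584 after MI. Nox4 rose by 1.79 (SE 0.26, adjusted p = 4.84e-05) and by 1.94 (SE 0.26, adjusted p = 1.55e-05) on the log2 scale. Calls of these 6 genes in MI against sham stood under all 23 alternatives in both genotypes, which included edgeR and DESeq2 on whole reads and the removal of each library in turn.

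Nox1 had lower means after MI than after sham surgery in both genotypes. It had 164, 132 and 198 normalized counts in the PKM2fl/fl sham hearts and 113, 138 and 98.8 after MI, and the groups overlapped. After loss of PKM2 it had 164, 135 and 156 after sham surgery and 129.7, 90.2 and 128 after MI, each MI heart lying below each sham heart. In PKM2fl/fl hearts the difference was -0.49 on the log2 scale (SE 0.20, adjusted p = 0.0491), which passed by p and was too small to be called. It was -0.40 (SE 0.20, adjusted p = 0.0984) in PKM2-/- hearts, and 0.11 there when libraries were scaled to total reads. That scaling moved the median of all genes in this comparison to 0.52, so that Nox1 was below the median gene under both scalings. Mural cells include the smooth muscle that Nox1 is known from. Of their 4 markers, 1 was called higher in PKM2fl/fl hearts, the smooth muscle actin Acta2 (1.90, adjusted p = 1.54e-04). In PKM2-/- hearts 2 were called lower, the pericyte gene Rgs5 (-1.41, adjusted p = 4.65e-06) and the smooth muscle myosin Myh11 (-1.34, adjusted p = 2.22e-04). The signs of all 4 were the same in both genotypes. Under a 2-fold change, PKM2fl/fl hearts had Rgs5 at -0.997 (adjusted p = 1.48e-04), Kcnj8 at -0.86 (adjusted p = 2.14e-04) and Myh11 at -0.60 (adjusted p = 0.0514). PKM2-/- hearts had Acta2 at 0.92 (adjusted p = 0.0211) and Kcnj8 at -0.57 (adjusted p = 4.16e-03). The part of mural cells in the level of Nox1 was not tested.

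Noxo1, the organizer that keeps NOX1 active, was low throughout. Its PKM2fl/fl sham hearts had 24.7, 13.3 and 11.3 normalized counts and its MI hearts 40.2, 38.6 and 21.9, and the groups overlapped. A difference of 1.02 on the log2 scale (SE 0.35, adjusted p = 0.0255) was called, but the adjusted p was 0.0646 without a filter on low values, 0.0692 in a fit of these 6 libraries alone and 0.207 with scaling to total reads. It was 0.0800 without sham heart 2, 0.110 without sham heart 3, 0.0885 without MI heart 1 and 0.0804 without MI heart 2. PKM2-/- hearts had 22.5, 19.6 and 15.1 normalized counts after sham surgery and 37.3, 29.2 and 20.2 after MI, which overlapped, and the difference was 0.55 (SE 0.35, adjusted p = 0.198).

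**Figure D2:**
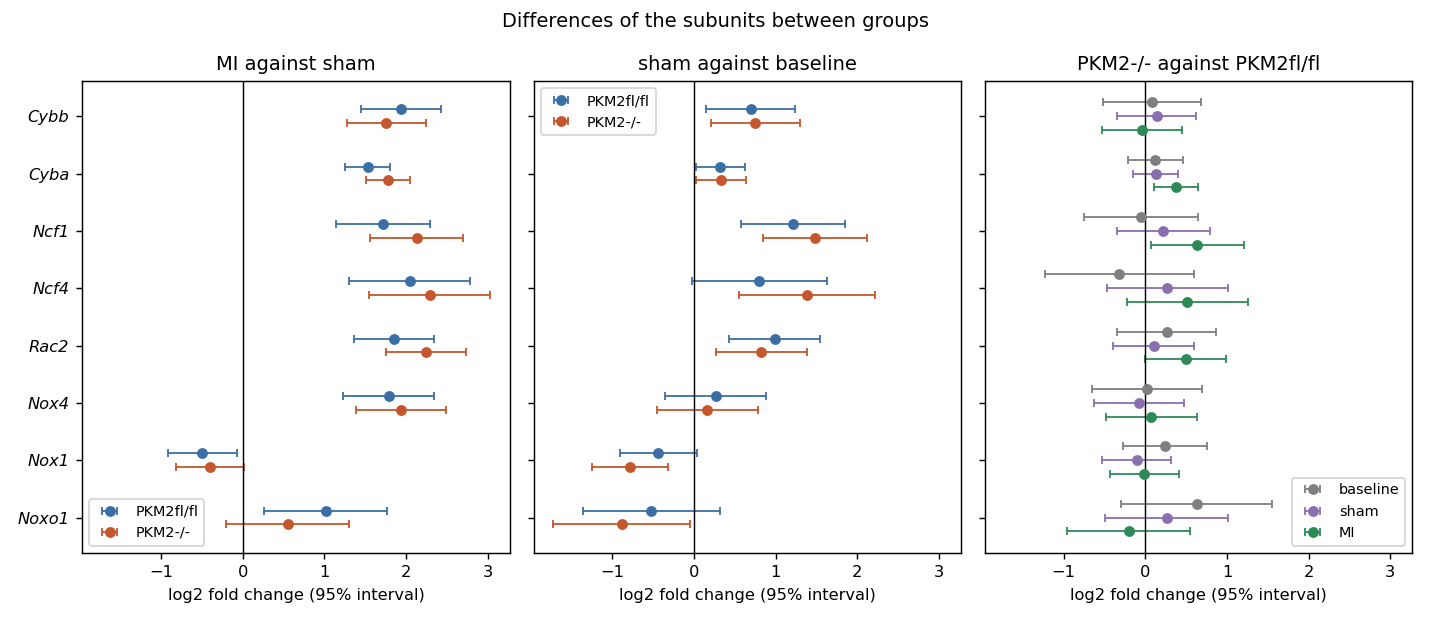
Log2 fold changes of the 8 genes (points) with 95% intervals (lines) from limma, for MI against sham and sham against baseline in each genotype and for PKM2-/- against PKM2fl/fl in each treatment. In MI against sham, 6 genes lie between 1.53 and 2.29 in both genotypes while Nox1 lies below 0 (in PKM2-/- hearts at 0.11 when scaled to total reads), and in the genotype comparisons every point lies between -0.32 and 0.64.

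Many markers of the cells that carry the phagocyte oxidase rose as well. Ptprc, the pan-leukocyte phosphatase CD45, had 931, 1245 and 598 normalized counts in PKM2fl/fl sham hearts and 2803, 2969 and 4137 after MI. The 4 leukocyte markers (Ptprc, Cd52, Laptm5, Coro1a) were all called higher in both genotypes, and their summed level went from 1390.3 to 2485 after sham surgery to 6058 to 8185 after MI in PKM2fl/fl hearts. Without PKM2 the sum went from 1728 to 2198 to between 7989 and 8599. Of 8 macrophage and monocyte markers, 6 were called higher in PKM2fl/fl hearts, and 7 were called higher and 1 lower in PKM2-/- hearts. The one that fell, Timd4, marks resident macrophages, with a log2 fold change of -1.94 (adjusted p = 6.19e-05). In PKM2fl/fl hearts Timd4 was at -0.94 (adjusted p = 0.0173) and Mrc1 at 0.98 (adjusted p = 3.53e-04), both passing by p under a 2-fold change. Of 6 neutrophil markers tested, 3 were called higher in each genotype, and 2 of the list, Ly6g and Mpo, were too low to be tested. S100a8, S100a9 and Retnlg were not called. They had 0.46 (adjusted p = 0.584), 0.43 (adjusted p = 0.576) and -0.44 (adjusted p = 0.621) in PKM2fl/fl hearts. In PKM2-/- hearts they had 1.53 (adjusted p = 0.0593), 1.35 (adjusted p = 0.0681) and 0.31 (adjusted p = 0.724). The 6 cardiomyocyte markers were called lower in 5 cases in PKM2fl/fl and in all 6 in PKM2-/- hearts. Of 2 testable markers of T, B and NK cells 1 was called higher in PKM2fl/fl and 0 in PKM2-/- hearts, and 0 were called among 5 endothelial, 3 atrial, 1 adipocyte and 5 erythroid markers in either genotype. In tissue of this kind, more cells of a type and more RNA per cell cannot be told apart, and the part of the leukocyte markers in the change of the oxidase genes was not tested.

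Of 5 fibroblast markers, 2 rose beside Nox4, which is known from those cells. Postn, made by activated fibroblasts, and Col1a1 rose by log2 fold changes of 3.82 (adjusted p = 4.40e-08) and 3.22 (adjusted p = 1.11e-06) in PKM2fl/fl hearts, and the same genes were called in PKM2-/- hearts. Pdgfra and Tcf21, which also mark resting fibroblasts, had 0.70 (adjusted p = 1.67e-04, under a 2-fold change) and 0.40 (adjusted p = 0.322). Dcn, a matrix proteoglycan gene of fibroblasts, was lower after MI by p without reaching 2-fold, at -0.53 (adjusted p = 0.0218) and, in PKM2-/- hearts, -0.58 (adjusted p = 0.0126). The sum of the 5 genes was 14490 to 23769 normalized counts after sham surgery and 77093 to 83327 after MI in PKM2fl/fl hearts, and 14963 to 23480 and 61633 to 85729 in PKM2-/- hearts. Their part in the level of Nox4 was not tested.

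The other genes of the oxidase family gave a mixed picture. Of 15 partners listed, 11 were abundant enough to test. Of these, 2 were called higher and 1 lower in PKM2fl/fl hearts, and 3 higher and 1 lower in PKM2-/- hearts. The gene that fell was the peroxide-forming oxidase Duox2 (-1.48, adjusted p = 4.31e-03, and -1.44, adjusted p = 4.38e-03), and the third that rose in PKM2-/- hearts was the proton channel Hvcn1 (1.25, adjusted p = 5.96e-05), both picked after their values were seen. Nrros, a partner of gp91phox in the endoplasmic reticulum that limits its amount, rose by 1.48 (adjusted p = 8.94e-07) and 1.42 (adjusted p = 8.58e-07) on the log2 scale. Sh3pxd2b, an adaptor with a p47phox-like domain layout, rose by 1.94 (adjusted p = 7.09e-07) and 1.69 (adjusted p = 1.51e-06). Poldip2, a protein that binds p22phox and raises NOX4 activity, had log2 fold changes of -0.86 (adjusted p = 4.69e-04) and -0.98 (adjusted p = 1.16e-04), under a 2-fold change. Cybc1, a chaperone that the gp91phox and p22phox pair needs to mature, had 0.84 (adjusted p = 2.05e-03) and 0.96 (adjusted p = 6.13e-04), under a 2-fold change. At the other end, Duox1, a catalytic subunit of the DUOX branch, had 0.23 (adjusted p = 0.598) and -0.56 (adjusted p = 0.168). Over the 11 partners the median difference was 0.32 in PKM2fl/fl and 0.51 in PKM2-/- hearts. Nox3, Noxa1, Duoxa1 and Duoxa2 had a mean under 10 normalized counts and were not tested.

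Receptors and kinases that switch the phagocyte enzyme on were more uniform. Of 16 such genes, 12 were called higher in PKM2fl/fl hearts and 15 in PKM2-/- hearts, and 0 were called lower, with medians of 1.63 and 2.29 on the log2 scale. Vav1, an exchange factor that loads Rac with GTP, rose by 2.28 (adjusted p = 2.35e-07) and 2.51 (adjusted p = 7.97e-08). Prkcd, a kinase that phosphorylates p47phox, rose by 1.31 (adjusted p = 5.10e-07) and 1.31 (adjusted p = 3.65e-07). Itgb2, the beta 2 integrin chain of leukocytes, rose by 2.58 (adjusted p = 2.20e-06) and 2.50 (adjusted p = 1.85e-06). Pik3cg, a phosphoinositide 3-kinase downstream of chemoattractant receptors, rose by 1.96 (adjusted p = 2.48e-06) and 2.57 (adjusted p = 1.80e-07). Fpr2, a formyl peptide receptor, had 1.54 (adjusted p = 0.166) in PKM2fl/fl hearts and rose by 2.94 (adjusted p = 0.0108) in PKM2-/- hearts, and the genotype by MI interaction was called for 0 of the 16 genes.

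Transcription factors of phagocytes followed. Of 6 tested, 4 were called higher in each genotype and 0 lower, with median log2 fold changes of 1.59 and 1.70. These were Runx1 (2.25 in PKM2fl/fl, adjusted p = 7.29e-07), Spi1 (1.72, adjusted p = 8.79e-07), Cebpa (1.74, adjusted p = 8.76e-06) and Irf8 (1.46, adjusted p = 2.86e-05), all regulators of myeloid cells. Irf1, an interferon-induced factor, had -0.08 (adjusted p = 0.793). Cebpe, a factor of late granulocyte stages, was too low to be tested.

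The next comparison asks whether the loss of PKM2 altered the oxidase genes within a treatment. Of the 8 genes, 0 were called at baseline, after sham surgery or after MI. Over all genes, 0.00972% were called at baseline, 0.00486% after sham surgery and 0.413% after MI. At an unadjusted p under 0.05 there were 748, 2047 and 3492 genes. By edgeR and by DESeq2, 0 of the 8 were called in these comparisons as well. At baseline, the members' log2 fold changes lay between -0.32 (Ncf4) and 0.63 (Noxo1), and after sham surgery between -0.11 (Nox1) and 0.27 (Ncf4). Members higher without overlap in PKM2-/- hearts numbered 2 at baseline, Cyba and Noxo1, beside 17.7% of all genes, and 0 after sham surgery, beside 8.27%. Scaling to total reads moved the median of all genes to -0.59 at baseline, -0.33 after sham surgery and 0.36 after MI, and turned the sign of 5, 6 and 3 of the 8 differences.

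After MI, the phagocyte genes other than Cybb had higher means in PKM2-/- than in PKM2fl/fl hearts. Cyba averaged 1124 ± 106 normalized counts in PKM2fl/fl and 1454 ± 85.1 in PKM2-/- hearts (SD, n = 3), and the genotypes did not overlap. It was the 1 of 8 members higher without overlap, beside 10.7% of all genes. Its difference was 0.37 on the log2 scale (95% interval 0.10 to 0.65, adjusted p = 0.155). Ncf1 averaged 883 ± 335 and 1324 ± 188, with a difference of 0.64 (0.07 to 1.21, adjusted p = 0.241) and overlap. Rac2 differed by 0.49 (-0.00058 to 0.99, adjusted p = 0.295) and Ncf4 by 0.51 (-0.23 to 1.25, adjusted p = 0.486), with overlap in both. Cybb averaged 1826 ± 614 and 1720.4 ± 215, a difference of -0.04 (-0.53 to 0.45, adjusted p = 0.950). Nox4 differed by 0.07 (-0.48 to 0.63, adjusted p = 0.918), Nox1 by -0.01 (-0.43 to 0.41, adjusted p = 0.985) and Noxo1 by -0.20 (-0.96 to 0.55, adjusted p = 0.818), and scaling to total reads turned Cybb, Nox1 and Noxo1 to 0.32, 0.35 and 0.15. The same scaling gave 0.74 for Cyba, 1.00 for Ncf1, 0.86 for Rac2, 0.88 for Ncf4 and 0.44 for Nox4, with the median of all genes at 0.36, and the adjusted p of the 8 lay between 0.154 and 0.870.

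The third PKM2fl/fl MI heart bears on these differences. It had the highest Cybb, Cyba, Ncf1, Ncf4, Rac2 and Nox4 of its group, and also the highest Ptprc of all 16 libraries. Its cardiomyocyte markers summed to 156083 normalized counts, against 333321 and 361156 in the other hearts of the group. The part of this make-up in the differences was not tested. Without it, Ncf1 differed between the genotypes by 0.93 (adjusted p = 0.0278) and Cyba by 0.45 (adjusted p = 0.0474), both passing by p and neither reaching 2-fold. Rac2 then differed by 0.72 (adjusted p = 0.0591), and the estimate for Cybb turned to 0.21 (adjusted p = 0.577). The members called stayed at 0, while the number of genes called after MI went from 85 to 632. This heart was picked with its high values seen, so its removal had to widen the differences of Ncf1, Cyba and Rac2. Removal of each library in turn gave 0.47 to 0.93 for Ncf1 and 0.33 to 0.45 for Cyba. In the MI hearts, neutrophil markers summed to 1329 to 2354 normalized counts in PKM2fl/fl and 3785 to 4915 in PKM2-/- hearts without overlap. Of the 6 tested, 0 were called between the genotypes, and their median difference was 1.44. Leukocyte markers summed to 6058 to 8185 and 7989 to 8599, and cardiomyocyte markers to 156083 to 361156 and 157401 to 228663. The part of these cells in the levels of Cyba and Ncf1 was not tested.

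Balance between subunits can be read within a heart, as a ratio of levels per kilobase, which leaves out differences in scaling between libraries. Ncf1 stood at 0.845 ± 0.118 of Cybb in PKM2fl/fl MI hearts (0.713 to 0.939) and at 1.34 ± 0.0362 in PKM2-/- MI hearts (1.31 to 1.38). The ranges did not overlap, which was so for 1 of 7 ratios computed, and an exact two-sided permutation test of 3 hearts against 3 cannot go below p = 0.10. In sham hearts the same ratio was 0.983 ± 0.123 and 1.05 ± 0.213, with overlap. Ncf4 stood at 0.536 ± 0.138 of Cybb after MI in PKM2fl/fl and at 0.775 ± 0.112 in PKM2-/- hearts, and Nox4 at 0.374 ± 0.0422 and 0.404 ± 0.0267, both with overlap.

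Whether MI changed the genes to a different extent in the 2 genotypes was tested by an interaction term. It was called for 0 of the 8 members, and for 0 of 20576 genes by limma and by edgeR, against 36 by DESeq2, with 1703 genes at an unadjusted p under 0.05 in limma. Estimates ran from -0.47 (95% interval -1.53 to 0.60, adjusted p = 0.830) for Noxo1 to 0.42 (-0.39 to 1.22, adjusted p = 0.791) for Ncf1. For Cybb the estimate was -0.18 (-0.87 to 0.51, adjusted p = 0.910) and for Nox4 0.15 (-0.63 to 0.93, adjusted p = 0.941). For Cyba, with the narrowest interval, it was 0.25 (-0.14 to 0.63, adjusted p = 0.742). Scaling to total reads moved the median of all genes to 0.67 for the interaction and gave 1.10 for Ncf1, 1.08 for Rac2, 0.94 for Cyba, 0.93 for Ncf4, 0.84 for Nox4, 0.78 for Nox1, 0.51 for Cybb and 0.19 for Noxo1, with adjusted p from 0.253 to 0.844.

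Sham surgery was also set against baseline, since opening the chest alone injures tissue. The sham hearts are shared with the comparison of MI, so both sets of values are not independent. In PKM2fl/fl hearts 0 of the 8 genes were called, against 0.17% of all genes, and in PKM2-/- hearts 1 was called, against 2.66%. With an unadjusted p under 0.05 there were 1813 and 3886 genes. DESeq2 called 2 members in each genotype. In PKM2fl/fl hearts 4 members stood higher without overlap, beside 17.4% of all genes, and 1 lower, beside 15.2%. In PKM2-/- hearts 5 stood higher, beside 18.4%, and 2 lower, beside 16.1%.

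Ncf1 had the largest difference. It had 111 and 109 normalized counts in PKM2fl/fl baseline hearts, against 288, 342 and 171 after sham surgery. With PKM2 lost it had 124 and 91.6 at baseline and 375, 234 and 305 after sham surgery. No sham heart overlapped with baseline. The difference was 1.21 (SE 0.30, adjusted p = 0.120) in PKM2fl/fl and 1.48 (SE 0.30, adjusted p = 0.0106) in PKM2-/- hearts, where it was called. Without the second PKM2-/- baseline heart it was 1.27 (adjusted p = 0.116), no longer called. In PKM2fl/fl hearts Ncf1 passed without sham heart 3 (1.50, adjusted p = 0.0175), without MI heart 3 (1.21, adjusted p = 0.0488) and with DESeq2 (1.27, adjusted p = 7.51e-03). Neutrophil markers had higher sums beside it, going from 84.0 to 189.7 normalized counts at baseline to between 231 and 1383 after sham surgery in PKM2fl/fl hearts, and from 136 to 174 to between 1046 and 1339 in PKM2-/- hearts. Of the 6 tested, 0 were called in PKM2fl/fl hearts (median 2.93) and 6 in PKM2-/- hearts (median 3.40), and their part in the level of Ncf1 was not tested.

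Rac2 had 77.7 and 56.4 normalized counts at baseline in PKM2fl/fl hearts and 93.2 and 67.8 in PKM2-/- hearts. Against sham, its differences were 0.99 (adjusted p = 0.144) and 0.83 (adjusted p = 0.0827). It was called in PKM2fl/fl hearts with DESeq2 (1.01, adjusted p = 0.0266) and without sham heart 3 (1.20, adjusted p = 0.0360). Ncf4 had 46.3 and 33.2 normalized counts at baseline in PKM2fl/fl hearts, compared with 22.1 and 44.0 where PKM2 was lost, and differed from sham by 0.80 (adjusted p = 0.594) and 1.38 (adjusted p = 0.0532). Ncf4 of PKM2-/- hearts was called with DESeq2 (1.41, adjusted p = 0.0206), with scaling to total reads (1.58, adjusted p = 0.0229) and without PKM2fl/fl sham heart 2 or 3, PKM2fl/fl MI heart 2 or 3 or PKM2-/- sham heart 3, with adjusted p from 0.0298 to 0.0464. Sham heart 3 of PKM2fl/fl was the lowest of its group in Cybb, Cyba, Ncf1, Ncf4 and Rac2, and in Ptprc.

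Cybb had 324 and 247 normalized counts at baseline in PKM2fl/fl and, with PKM2 lost, 371 and 242, and its differences of 0.69 (adjusted p = 0.376) and 0.75 (adjusted p = 0.110) did not pass. Cyba, at 316 and 303 and at 331 and 343 at baseline, had 0.32 (adjusted p = 0.527) and 0.33 (adjusted p = 0.225). Nox4 differed least, at 115 and 133 and at 111 and 143 at baseline, with 0.26 (adjusted p = 0.918) and 0.16 (adjusted p = 0.842). Leukocyte markers summed to 952 to 1045 normalized counts at baseline and 1390.3 to 2485 after sham surgery in PKM2fl/fl hearts, and to 859 to 1143 and 1728 to 2198 in PKM2-/- hearts.

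Nox1 was highest in the hearts without surgery, at 232 and 209.6 normalized counts in PKM2fl/fl and 226 and 301 in PKM2-/- hearts. All sham hearts lay below the baseline hearts of their genotype, the differences being -0.44 (adjusted p = 0.614) and -0.78 (adjusted p = 0.0532). Noxo1 had 24.3 and 21.2 normalized counts at baseline in PKM2fl/fl and 38.5 and 33.0 in PKM2-/- hearts, with -0.52 (adjusted p = 0.835) and -0.89 (adjusted p = 0.235) after sham surgery. Neither gene was called in this comparison in either genotype.

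Which subunit was most abundant was read per kilobase of the canonical transcript, since a long transcript gives more reads. Transcripts ran from 793 bases for Cyba to 4759 for Cybb. Counts are summed over all exons of a gene, so the length of a single transcript only approximates the counted length, and ranks are approximate. Cyba was the highest of the 8 in all 6 groups, at 391 ± 11.7 normalized counts per kilobase in PKM2fl/fl baseline hearts (SD, n = 2) and 1418 ± 133 in PKM2fl/fl MI hearts (SD, n = 3). At baseline Nox1 came next with 86.2 ± 6.26, above Cybb with 60.1 ± 11.4, Ncf1 with 40.6 ± 0.517, Nox4 with 33.1 ± 3.39, Ncf4 with 26.8 ± 6.26, Rac2 with 19.2 ± 4.33 and Noxo1 with 9.11 ± 0.877. In that order Nox4 and Ncf4 overlapped between hearts. The span of Nox1 overlaps Cstf2 in GRCm38.p6 and further genes in another build, described below. Whether its level includes their reads cannot be told, which limits its rank.

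After MI in PKM2fl/fl hearts the order became Cyba, Cybb (384 ± 129), Ncf1 (324 ± 123), Ncf4 (202 ± 69.2), Rac2 (141 ± 41.0), Nox4 (141 ± 39.6), Nox1 (45.5 ± 7.80) and Noxo1 (13.4 ± 4.04). The ranges of neighbours from Cybb to Nox4 overlapped between hearts. Within each of these hearts the order Cybb, Ncf1, Ncf4 and Rac2 held, while Rac2 and Nox4 changed places between hearts. Nox1 lay below Nox4 in every heart. Among PKM2-/- MI hearts no neighbours overlapped, from Cyba (1833 ± 107) through Ncf1 (486 ± 69.1), Cybb (361 ± 45.1), Ncf4 (277 ± 22.8), Rac2 (194 ± 13.8), Nox4 (146 ± 20.6) and Nox1 (45.3 ± 8.76) to Noxo1 (11.6 ± 3.42). By this measure, and with that limit for Nox1, the catalytic subunits changed rank. Nox1 stood at 1.45 ± 0.171 of Cybb per kilobase in PKM2fl/fl baseline hearts, at 0.704 ± 0.309 after sham surgery and at 0.129 ± 0.0486 after MI. Without PKM2 these ratios were 1.72 ± 0.830, 0.559 ± 0.0742 and 0.127 ± 0.0330.

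**Figure D3:**
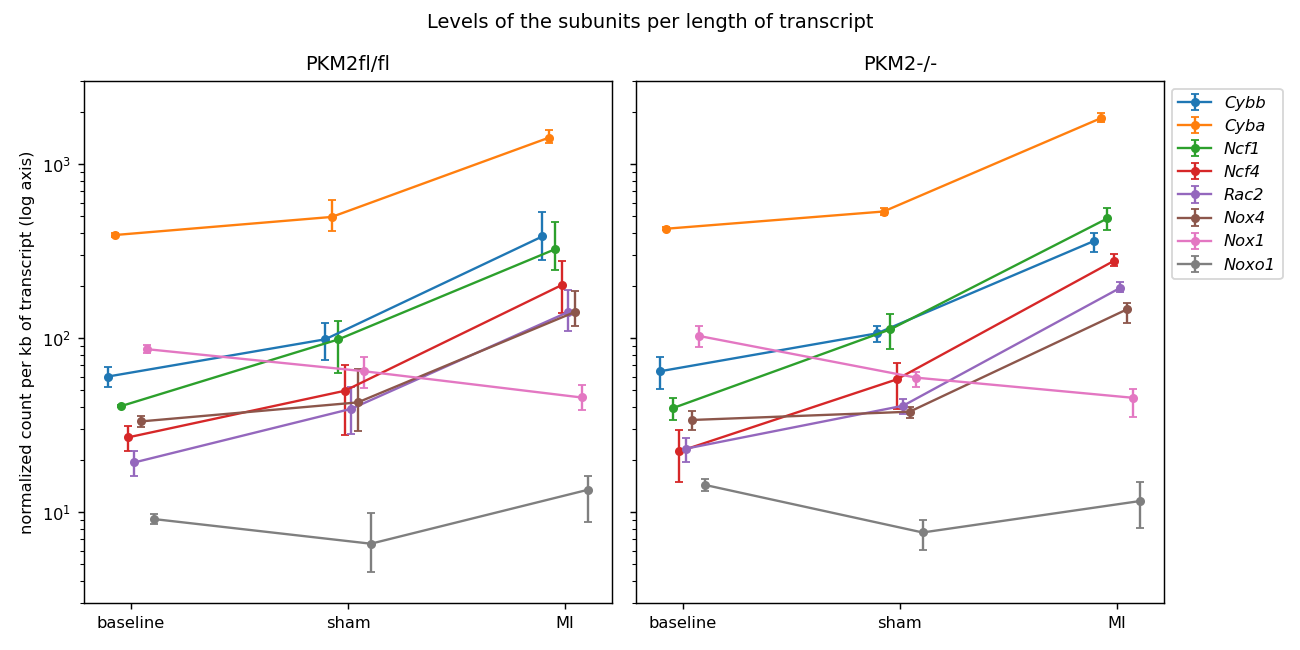
Mean normalized count per kilobase of canonical transcript (log axis) of the 8 genes at baseline, after sham surgery and after MI, for each genotype. Whiskers run from the lowest to the highest heart, and points are shifted sideways to show them. Cyba is on top throughout, and Nox1, next to Cyba at baseline, falls under all members but Noxo1 after MI.

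Over the 16 libraries the 5 phagocyte genes followed one another closely, with Pearson's r of log2 values from 0.951 to 0.984 for each pair. Nox4 followed them with r from 0.903 to 0.938, Nox1 ran against them with r from -0.897 to -0.808, and Noxo1 had r from 0.174 to 0.368. These values describe libraries that fall into treatment groups and share the difference between MI and the rest, so no test was made. Genes most like each member, among all 20576, were found in the same way. Cybb was most like Diaph3 (0.992), Ptprc (0.991) and Evi2b (0.988), Cyba most like Lpxn (0.997), Cotl1 (0.996) and Vim (0.996), and Ncf1 most like Pla2g7 (0.994), Nfam1 (0.991) and Fcgr2b (0.989). Ncf4 was nearest to Glipr2 (0.990), Cd300lf (0.985) and Ikbke (0.982), and Rac2 to Nckap1l (0.993), Tyrobp (0.993) and Cd53 (0.991). Several of these, among them Ptprc, Evi2b, Tyrobp, Cd53, Nckap1l and Fcgr2b, are known from blood cells. Those named hold no neighbour of Cyba, and not the nearest genes of Cybb, Ncf1 and Ncf4 (Diaph3, Pla2g7 and Glipr2). Which cells the neighbours came from was not tested.

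The neighbours of Nox4 were other genes. They were Tgfbr1 (0.975), a receptor for transforming growth factor beta, Gm37159 (0.974) and 4930503L19Rik (0.974). Tgfbr1 had between 882 and 1298 normalized counts in the 10 hearts without MI and between 2219.8 and 3436 in the 6 MI hearts, the third PKM2fl/fl MI heart being highest for both genes. The first PKM2fl/fl sham heart was also the highest non-MI heart for both.

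Nox1 was most like Tbx2 (0.954), a T-box transcription factor, Arl13a (0.949) and Tjp1 (0.933). Arl13a went from between 51.1 and 55.0 normalized counts at baseline to between 11.4 and 25.7 after MI. In the GENCODE annotation of GRCm39, another build than that of the files, Arl13a lies inside the outer span of Nox1 on the opposite strand, and Xkrx lies inside it on the same strand. Neither overlaps Nox1 among the RefSeq genes of GRCm38.p6. The annotation release used for counting is not given in the sources used here. At baseline Xkrx had 18.6 to 22.0 normalized counts, against 209.6 to 301 for Nox1. In GRCm38.p6, Nox1 shares 402 bases at its 3′ end with Cstf2, which had 278 to 599 normalized counts and was higher in every MI heart than in every other heart, opposite to Nox1. Whether the counting used strand is not given in the sources used here, so reads of such pairs cannot be told apart. The same limit holds for Cybb and Ncf1, whose spans in GRCm38.p6 share 3954 bases with Gm33784 and 2419 bases with LOC115490142. Noxo1 overlaps Gfer and Tbl3 in GRCm39 and no RefSeq gene in GRCm38.p6. Its neighbours were looser, Trim37 (0.816), Gmeb1 (0.814) and C1qtnf3 (0.785).

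**Figure D4:**
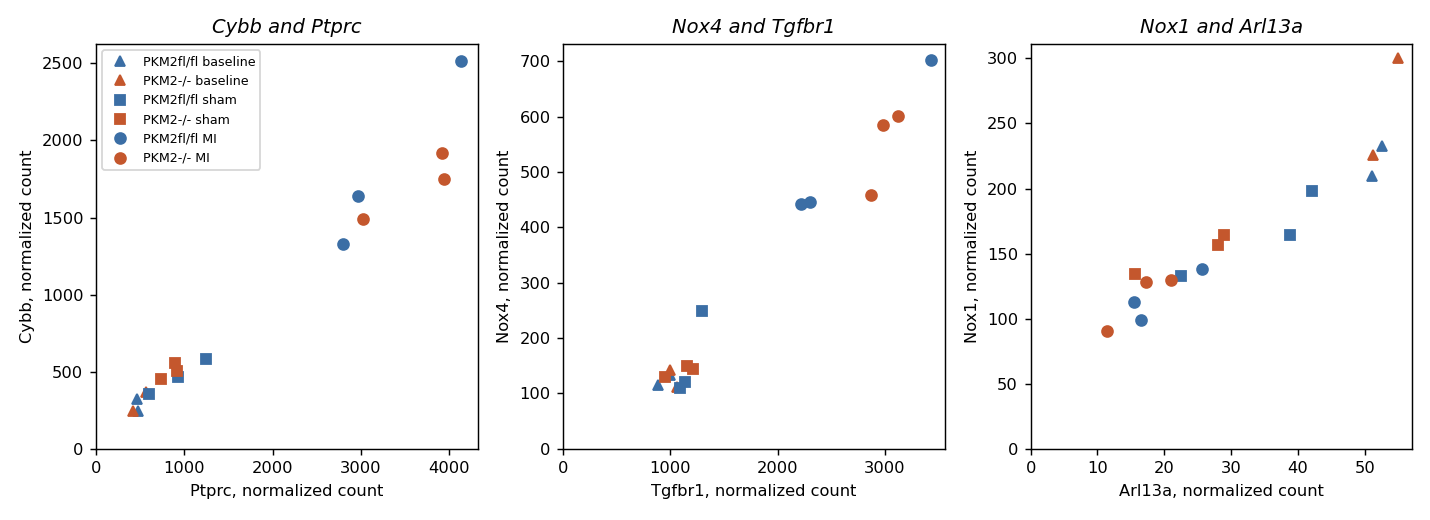
Each of 3 members against a gene with a closely similar pattern, as normalized counts in the 16 hearts, with genotype as colour and treatment as symbol (triangle baseline, square sham, circle MI). Cybb with Ptprc and Nox4 with Tgfbr1 separate the 6 MI hearts at the upper right, whereas Nox1 with Arl13a places the 4 baseline hearts there.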

How the data were processed

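RNA was sequenced from 16 left ventricles after rRNA depletion, paired-end on an Illumina NextSeq. Trimming (PRINSEQ), alignment to mm10 (HISAT2), counting per gene (featureCounts) and normalization by DESeq2 size factors were done by the authors. Versions and strand settings are not given in the sources used here. The deposited table holds normalized signal, that is read counts divided by the size factor of each library, and the mean of it over the libraries. Its other 5 columns hold the authors' log2 fold change between baseline groups with its standard error, a test score, and a p-value with its adjusted form, and were not used. All 465236 values above 0 were whole reads within 0.01 after multiplication by the library's factor, with totals of 20623769 to 71855101. Columns of no sample numbered 0.

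Log2 of the normalized count plus 1 was fitted with limma 3.58.1 (trend) in R 4.3.3 for 6 groups, over 20576 genes with a mean of at least 10, with Benjamini-Hochberg adjustment over all of them. A call required a change of at least 2-fold together with an adjusted p under 0.05. A fold change on this scale understates the change of low genes. All p-values not otherwise named are from limma, and all SDs are over hearts of a group. Alternatives were edgeR 4.0.16 (quasi-likelihood) and DESeq2 1.42.0 on the recovered reads, which called 4913 and 5347 genes in MI against sham of PKM2fl/fl, no filter, a pseudocount of 0.1, scaling to total reads, only the groups compared, the replicate number as a block, no fold threshold, and each library left out in turn. The fits were tested on simulated data with known changes. Transcript lengths are of GENCODE M39 canonical transcripts on GRCm39, while positions and promoter sequences are from RefSeq on GRCm38.p6, in which 6 of the 8 genes had a promoter entry. Genes named besides the members were, for each list, at most 4 with the smallest p and the 1 with the largest p in MI against sham of PKM2fl/fl, the 3 nearest genes of each member, and markers. Markers, overlapping genes and ratios described were picked with values known. The members and lists were chosen with earlier results of these data known. A gene of the partner list is not reported here and is left out of its counts.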

Additional observations from a re-analysis of the deposited data

How the results depend on the processing

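The 6 genes called in both genotypes after MI kept their calls under all 23 alternatives, and no member was called between the genotypes or for the interaction under any. Precision differed between genes, and Noxo1, with 13 to 46 reads per library, had the fewest reads of the 8. The cause of the changes below was not tested.

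Scaling to total reads turned the sign of small genotype differences. At baseline it gave -0.51 for Cybb, -0.47 for Cyba, -0.32 for Rac2, -0.56 for Nox4 and -0.35 for Nox1, after sham surgery -0.18 for Cybb, -0.20 for Cyba, -0.10 for Ncf1, -0.051 for Ncf4, -0.22 for Rac2 and -0.039 for Noxo1, after MI 0.32 for Cybb, 0.35 for Nox1 and 0.15 for Noxo1, and for the interaction 0.51 for Cybb and 0.19 for Noxo1. For MI against sham in PKM2-/- hearts it gave 0.11 for Nox1. It called 44 genes between genotypes at baseline, 113 after sham surgery, 94 for sham against baseline in PKM2fl/fl hearts and 54 for the interaction, and 2 members for sham against baseline in PKM2-/- hearts.

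In the order baseline, sham and MI, the genotype comparisons called 2, 1 and 85 genes, sham against baseline 35 (PKM2fl/fl) and 548 (PKM2-/-), and MI against sham 4832 and 5923. DESeq2 called 18, 111 and 271 between genotypes, 237 for sham against baseline in PKM2fl/fl hearts, 36 for the interaction, and 2 members for sham against baseline in each genotype. edgeR called 1 at baseline and 23 for sham against baseline in PKM2fl/fl hearts. Fits of only the groups compared called 41, 9 and 6 between genotypes, and 1 and 363 for sham against baseline. Without a fold threshold 2 genes were called after sham surgery and 199 after MI between genotypes, 1058 for sham against baseline in PKM2-/- hearts, and 10299 and 11679 for MI against sham. No filter gave 0 between genotypes after sham surgery, and a pseudocount of 0.1 gave 9 at baseline.

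Replicate numbers showed no pairing of the hearts over all genes tested, where of 36 same-numbered pairs across groups 1 had a correlation above 0.1 (from -0.196 to 0.126). A pairing that touches few genes would not show in this check. With the number as a block, calls between genotypes were 1, 0 and 46 and those for sham against baseline in PKM2fl/fl hearts 23, and no call of a member changed.

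Leaving out each library in turn gave 0 to 40, 0 to 49 and 11 to 632 genes between genotypes, 7 to 212 (PKM2fl/fl) and 243 to 622 (PKM2-/-) for sham against baseline, and 0 to 226 for the interaction, and 0 to 2 members for sham against baseline in both genotypes. Both highest counts, 632 and 226, came without PKM2fl/fl MI heart 3. The range of the log2 fold change crossed 0 between genotypes for Cybb (-0.23 to 0.39), Ncf1 (-0.27 to 0.16), Ncf4 (-0.80 to 0.16) and Nox4 (-0.16 to 0.20) at baseline. It did so after sham surgery for Cyba (-0.0023 to 0.29), Cybb (-0.047 to 0.31), Ncf1 (-0.069 to 0.43), Ncf4 (-0.098 to 0.56), Nox1 (-0.25 to 0.034), Nox4 (-0.30 to 0.29) and Rac2 (-0.11 to 0.33), and after MI for Cybb (-0.25 to 0.21), Nox1 (-0.12 to 0.16), Nox4 (-0.040 to 0.29) and Noxo1 (-0.47 to 0.024). The same held for the interaction of Cybb (-0.38 to 0.077), Ncf4 (-0.048 to 0.61), Nox1 (-0.046 to 0.27) and Nox4 (-0.22 to 0.37), and for sham against baseline of Nox4 in PKM2fl/fl (-0.10 to 0.48) and PKM2-/- hearts (-0.018 to 0.35).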
